A study of Homo sapiens with 4 samples.

Results

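The genes described here fold, check, import or remove proteins in the endoplasmic reticulum (ER), the compartment through which secreted and membrane proteins pass. They are 43 listed genes, of which 40 had at least 1 probe set that carries their gene symbol alone, among 19775 genes so measured. Each gene was read by its representative probe set, the one with the highest mean over the arrays. TXNDC5 and SYVN1 were matched only by probe sets that list several genes, and SEC61G by none with its symbol alone, so these 3 were not analysed here. All 40 measured members passed the filter on level (above a floor of 62.6 intensity units, the median of all deposited values, on at least 1 array), and they were compared among 14427 genes. Of the 40, 39 were above the floor on all 4 arrays; DERL3 was not.

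The arrays were Affymetrix HG-U133 Plus 2.0, on which labelled RNA binds sets of short probes, and the samples were KGN cells, a line from a human ovarian granulosa cell tumour. In the siYT+8Br-cAMP group, cells received siRNAs against YAP and TAZ (5 nM of each) and, after the medium change at 48 h, 0.5 mM 8Br-cAMP for 24 h. The siYT cells had the same siRNAs without 8Br-cAMP. The siNC+8Br-cAMP cells had a control siRNA (10 nM) with the same 8Br-cAMP treatment, and the siNC cells had the control siRNA alone. YAP and TAZ (genes YAP1 and WWTR1) are transcriptional co-activators held back by the Hippo pathway, and 8Br-cAMP is a cell-permeable cyclic AMP analogue that mimics gonadotropin signalling. All 4 groups share 1 cell line, transfection and the total time in culture, and each group held 1 array, so no difference below has a replicate check. In cells measured in bulk, fewer cells with a transcript and less transcript per cell cannot be told apart.

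Proteins enter the ER through the SEC61 channel, and chaperones and disulfide isomerases fold them there. Misfolded chains are recognised by lectins and mannosidases and returned to the cytosol for destruction, which is called ER-associated degradation. When unfolded chains build up, the membrane sensors IRE1 (gene ERN1), PERK (EIF2AK3) and ATF6 start the unfolded protein response, which raises transcription of chaperone and degradation genes. Granulosa cells secrete hormones and matrix of the follicle, and their steroid-making enzymes sit in the ER membrane and in mitochondria.

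The siRNA targets were lower on the arrays with YAP/TAZ siRNA, YAP1 by 3.38-fold with and 3.80-fold without 8Br-cAMP and WWTR1 by 6.11-fold and 5.22-fold. Of 9 granulosa markers, 6 (FOXL2, CYP19A1, INHA, GATA4, KRT18 and VIM) were above the floor on all 4 arrays, and FSHR, AMHR2 and NR5A1 were above it on 0 arrays. INHA was close to the floor without 8Br-cAMP, at 66.1 in siYT and 70.5 in siNC. Among markers of other cells, EPCAM, CDH1 and CYP17A1 were above the floor on 0 arrays, PTPRC and ALB on 1, and PECAM1 on 4 at intensities of 144 to 233. The siYT+8Br-cAMP array had the highest ratio of 3' to 5' signal, 1.35 for ACTB, where the other arrays had 1.07 to 1.14, and 1.13 for GAPDH, where they had 0.888 to 0.962. As a partial gauge of measurement error, well-measured probe sets of the same gene were set against each other, over 3019 genes. This spread holds no variation between replicate cultures or arrays. The SD of the log2 differences between such probe sets was 0.54 and 0.39 for the knockdown comparisons with and without 8Br-cAMP. For 8Br-cAMP it was 0.53 with YAP/TAZ siRNA and 0.37 with control siRNA. It was thus larger wherever the siYT+8Br-cAMP array entered, and the part of the 3' to 5' ratio in this was not tested. Between probe sets of the members alone, the SD was 0.52 and 0.50 for knockdown with and without 8Br-cAMP. For 8Br-cAMP it was 0.57 and 0.42 with YAP/TAZ and control siRNA.

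Most ER folding genes had higher signal after YAP/TAZ knockdown. In siYT against siNC, 33 of the 40 members were higher and 7 lower, with a median log2 difference of 0.45 (1.37-fold) and a range of -0.92 to 1.32. Over all 14427 genes the median was 0 and 47.9% were higher. At the 2-fold rule used throughout, 8 members were higher (20.0% of them), against 7.30% of all genes, and 0 were lower, against 6.05%. The 8 were CALR, DNAJC3, P4HB, CRELD2, EIF2AK3, CREB3L2, OS9 and ERLEC1.

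With 8Br-cAMP present, siYT+8Br-cAMP against siNC+8Br-cAMP gave 31 members higher and 9 lower, a median of 0.41 and a range of -1.05 to 1.27. Here 3 members were at least 2-fold higher (CRELD2, MBTPS1 and ERLEC1), against 6.74% of all genes, and 1 was at least 2-fold lower (SEC61B), against 9.48%. The share of members at least 2-fold higher in this comparison, 7.5%, was thus near that of all genes. Without probe sets whose suffix marks shared matches, 8 of the 32 members left were at least 2-fold higher and 2 lower, against 7.03% and 9.65% of all genes.

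The arrays with YAP/TAZ siRNA can also be read together. For 21 members, both arrays with YAP/TAZ siRNA lay above both arrays with control siRNA, against 19.5% of all genes for which this held. The opposite order was seen for 2 members, SSR3 and DERL3, against 19.3% of all genes. Members higher in both knockdown comparisons by any amount numbered 28, or 70.0%, against 28.5% of all genes, and 4 (10.0%) were lower in both, against 28.5% of all genes as well. Only CRELD2 and ERLEC1 passed 2-fold upward in both (2.38% of all genes were), and 0 members were at least 2-fold lower in both (2.81% of all genes were). Across the 40 members, the knockdown differences with and without 8Br-cAMP, which share no array, had Pearson's r = 0.46, against 0.51 across all genes; genes of 1 array share its hybridisation and are not independent replicates.

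After 8Br-cAMP the medians of the members were also above 0. In siYT+8Br-cAMP against siYT, 26 members were higher and 14 lower, with a median of 0.28 and a range of -1.56 to 1.27. At 2-fold, MBTPS2 and ERLEC1 were higher and EIF2AK3 and SEC61B lower, which is 2 members each way, against 5.00% and 9.88% of all genes. In siNC+8Br-cAMP against siNC, 30 members were higher and 10 lower, with a median of 0.20 and a range of -1.04 to 1.21. DNAJB11, DNAJC3, CREB3L2 and ERLEC1 were at least 2-fold higher (4 members, against 4.34% of all genes) and SEL1L was lower (1 member, against 5.22%). Of all genes, 46.3% and 46.7% were higher in these comparisons, and the medians were 0. When all probe sets of each gene were averaged in place of the representative, 0 members passed 2-fold either way with YAP/TAZ siRNA, and 1 higher and 0 lower did with control siRNA.

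ERLEC1 alone was at least 2-fold higher in both 8Br-cAMP comparisons, against 1.46% of all genes, and 0 members were lower in both, against 2.08%. Both arrays with 8Br-cAMP lay above both arrays without it for 10 members (16.2% of all genes) and below for 5 (17.6% of all genes). The 10 were CANX, DNAJB9, DNAJB11, SDF2L1, ATF6B, MBTPS2, EDEM2, DERL1, DERL2 and ERLEC1, and the 5 were XBP1, SEL1L, EDEM1, EDEM3 and SEC61B. These orders are those of representative probe sets, and other well-measured probe sets did not all share them. With YAP/TAZ and control siRNA, those of DERL1 gave -0.34 and -0.24, and -0.18 and -0.27. Those of DNAJB9 gave -0.48 and -0.67, and -1.78 and 0.40, and that of EDEM3 0.43 and 1.11. That of ERLEC1 was higher in both comparisons. The 8Br-cAMP comparisons and the knockdown comparisons use the same 4 arrays, so a high or low value on 1 array enters a comparison of each kind.

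**Figure D1:**
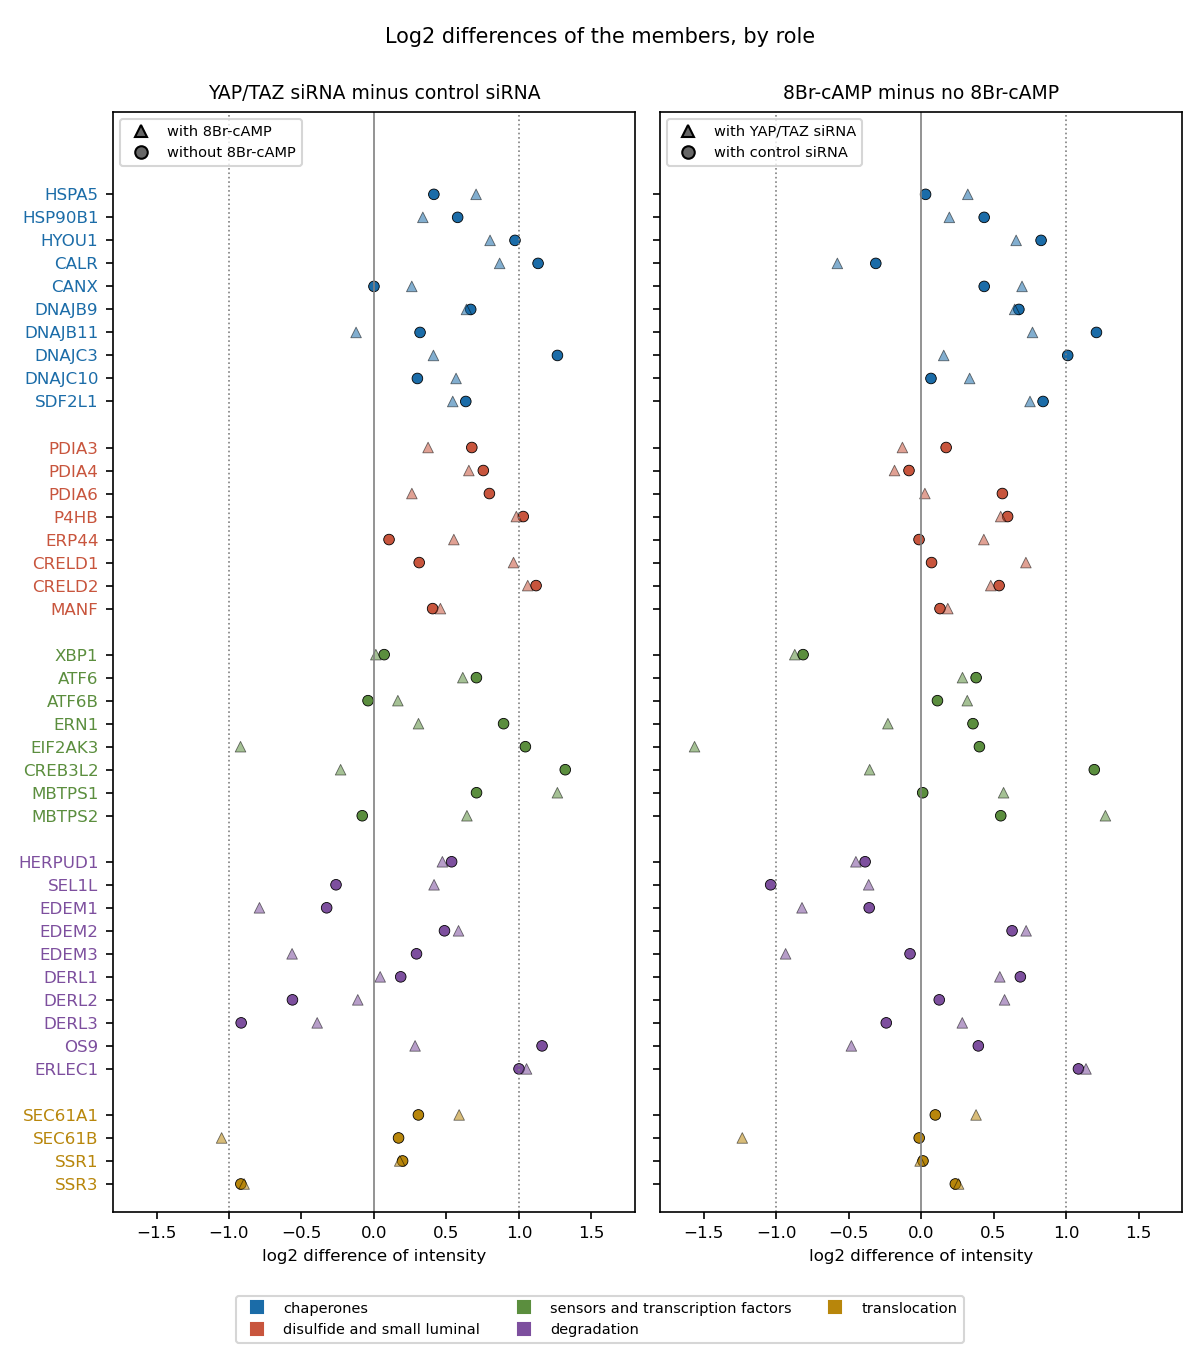
Log2 difference of intensity for each of the 40 members, grouped by role from top to bottom, for YAP/TAZ siRNA minus control siRNA (left) and for 8Br-cAMP minus no 8Br-cAMP (right). Triangles involve the siYT+8Br-cAMP array and circles do not; dotted lines mark 2-fold. In the left panel, 33 of 40 circles and 31 of 40 triangles lie right of 0.

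An additive fit over all 4 arrays and all 14427 genes (limma with Benjamini-Hochberg adjustment), which treats any disagreement between the paired comparisons of a factor as error (residual degrees of freedom: 1), called 0 members for either factor at an adjusted p under 0.05. Of all genes, the fit called 0.658% higher and 1.12% lower for knockdown, and 0.111% higher and 0.0277% lower for 8Br-cAMP. At an unadjusted p under 0.05, 10 members were higher with knockdown (25%, against 9.83% of all genes) and 1 was lower (SSR3, against 9.99%). The 10 were HYOU1, CALR, DNAJB9, DNAJC3, PDIA4, P4HB, CRELD2, ATF6, MBTPS1 and ERLEC1. For 8Br-cAMP, 7 members were higher (HYOU1, DNAJB9, DNAJB11, SDF2L1, MBTPS2, EDEM2 and ERLEC1, against 6.27%) and 1 lower (XBP1, against 9.35%). The smallest adjusted p among members in this limma fit was 0.114 for knockdown (CRELD2, effect 1.09, SE 0.26 on the log2 scale) and 0.159 for 8Br-cAMP (ERLEC1, effect 1.11, SE 0.26).

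Many of these genes are known to carry stress elements in their promoters, through which ATF6 and XBP1 act together with the CCAAT-binding factor NF-Y. RefSeq promoter windows (GRCh38.p14, 250 bases before to 50 after an annotated start) were found for 40 of the 43 listed genes, all but PDIA3, DERL1 and DERL3, and 9 genes had several windows. Both strands of every window were searched. The ER stress element ERSE (CCAAT and CCACG separated by 9 bases) was in at least 1 window of 7 members, HSPA5, HSP90B1, CALR, CANX, PDIA6, CRELD2 and XBP1, which is 17.5% of members with a window against 0.0916% of all 27305 genes with one. The related ERSE-II (ATTGG and CCACG separated by 1 base) was in windows of HYOU1, SDF2L1 and HERPUD1, or 7.5% against 0.0696%. Among the 11587 compared genes with a window, the shares were 0.138% for ERSE and 0.147% for ERSE-II. Because many members are known carriers of these elements, their high share was given in advance and is no result of these arrays. The sequences below show, 5' to 3' on the strand of the gene, the 250 bases before the start for 4 members with an element and for ERLEC1, the only member at least 2-fold higher in all 4 comparisons, whose window held neither. Capitals mark the paired blocks of each element, and everything else is in lower case.

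HSPA5, chr9:125241344-125241593, minus strand: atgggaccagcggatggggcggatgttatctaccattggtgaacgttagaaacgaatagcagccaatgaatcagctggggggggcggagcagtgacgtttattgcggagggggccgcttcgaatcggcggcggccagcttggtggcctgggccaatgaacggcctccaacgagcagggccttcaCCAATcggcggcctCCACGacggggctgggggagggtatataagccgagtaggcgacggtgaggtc
HYOU1, chr11:119057206-119057455, minus strand: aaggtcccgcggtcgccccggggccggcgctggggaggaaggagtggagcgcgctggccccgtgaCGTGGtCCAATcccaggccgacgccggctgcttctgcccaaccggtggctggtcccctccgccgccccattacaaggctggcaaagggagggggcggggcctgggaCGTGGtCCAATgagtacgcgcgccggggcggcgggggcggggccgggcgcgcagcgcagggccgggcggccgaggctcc
CRELD2, chr22:49918384-49918633, plus strand: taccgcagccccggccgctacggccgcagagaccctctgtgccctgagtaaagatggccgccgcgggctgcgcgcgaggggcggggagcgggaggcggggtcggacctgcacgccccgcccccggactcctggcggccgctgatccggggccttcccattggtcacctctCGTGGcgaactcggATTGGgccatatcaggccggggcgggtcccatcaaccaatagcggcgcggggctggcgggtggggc
XBP1, chr22:28800570-28800819, minus strand: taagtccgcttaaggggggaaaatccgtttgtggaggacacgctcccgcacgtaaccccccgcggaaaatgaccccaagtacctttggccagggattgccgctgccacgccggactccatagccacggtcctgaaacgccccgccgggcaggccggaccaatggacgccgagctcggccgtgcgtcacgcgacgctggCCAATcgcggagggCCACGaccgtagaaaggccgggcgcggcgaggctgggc
ERLEC1, chr2:53786794-53787043, plus strand: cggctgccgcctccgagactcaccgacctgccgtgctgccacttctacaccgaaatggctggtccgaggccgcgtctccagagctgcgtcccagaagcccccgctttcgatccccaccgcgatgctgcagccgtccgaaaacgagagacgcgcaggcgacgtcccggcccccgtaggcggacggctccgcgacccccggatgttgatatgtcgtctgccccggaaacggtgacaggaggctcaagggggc

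The element of HSPA5 began 66 bases before the start, that of XBP1 52 bases and that of CRELD2 80 bases, the last on the opposite strand. HYOU1 held 2 copies of ERSE-II on the opposite strand, at 185 and 79 bases before the start. A shorter motif bound by XBP1 and ATF6, the UPRE core TGACGTG, was in windows of 5 members (HYOU1, DNAJC10, TXNDC5, SEC61A1 and SSR3). That is 12.5% against 2.4% of all genes, and 59 other genes listed for the pathway had a similar share, 13.6%. In HYOU1 the UPRE core overlapped the farther ERSE-II. The cyclic AMP response element TGACGTCA was in the window of CREB3L2 only, 2.50% of members against 2.25% of all genes. A TEAD core, CATTCC, the short motif of the factors through which YAP and TAZ act, was in windows of 4 members (CRELD1, ERN1, CREB3L2 and SSR3), or 10.0% against 16.7% of all genes. Among the 11587 compared genes with a window, the shares were 3.18% for the UPRE core, 3.55% for the cyclic AMP response element and 15.4% for the TEAD core. These matches describe letters in a window, not binding.

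The 10 members with an ERSE or ERSE-II were all higher in siYT+8Br-cAMP against siNC+8Br-cAMP, with a median of 0.51, and all higher in siYT against siNC, with a median of 0.61. CANX (0.0001) and XBP1 (0.07) were close to 0 without 8Br-cAMP, as was XBP1 (0.01) with it. Of the 27 compared members whose windows held neither element, 19 were higher with 8Br-cAMP (median 0.41) and 21 without (median 0.32). After 8Br-cAMP, the medians of members with an element were 0.26 with YAP/TAZ siRNA and 0.44 with control siRNA, against 0.29 and 0.13 for those with neither. No test was made between these subsets.

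**Figure D2:**
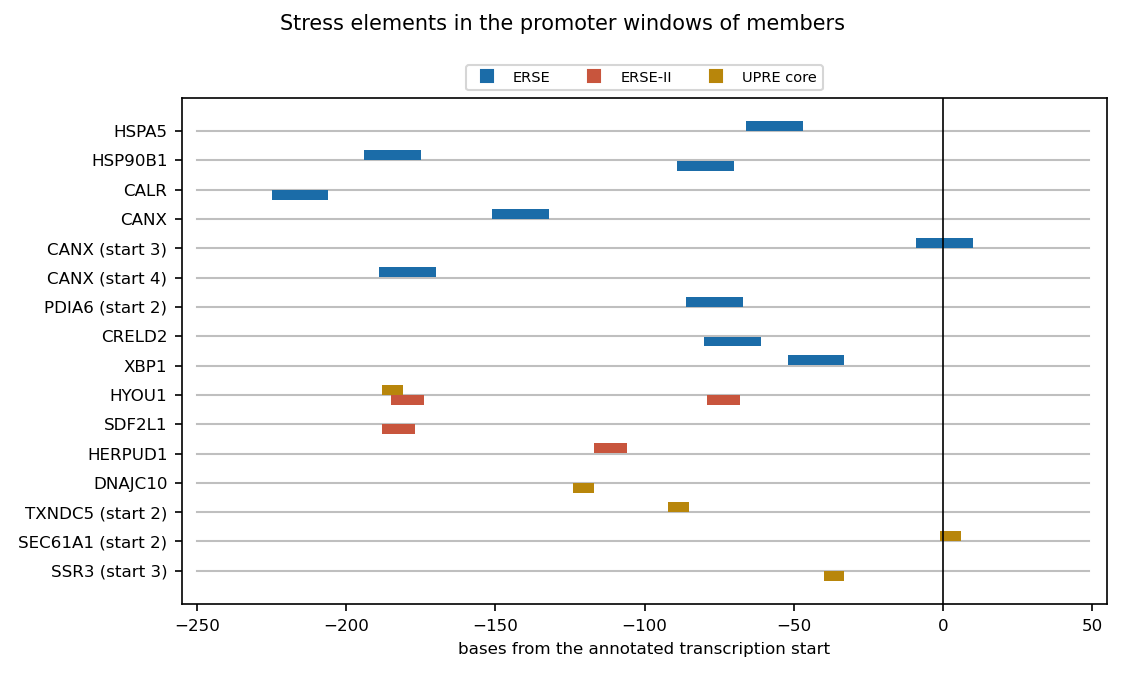
Positions of ERSE, ERSE-II and UPRE core matches in the promoter windows of members that held at least 1, in bases from the annotated transcription start (vertical line at 0); each row is 1 window, and matches on the strand of the gene are drawn above the row and matches on the other strand below it. The ERSE matches of HSPA5, XBP1 and CRELD2 lie within 80 bases of the start.

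Among the 10 chaperones and their partners, 9 were higher in siYT+8Br-cAMP against siNC+8Br-cAMP (median 0.56) and 10 in siYT against siNC (median 0.61). HSPA5 encodes BiP, the ER Hsp70 that binds unfolded chains and holds the stress sensors inactive. Its intensity was 46494 in siYT+8Br-cAMP, 37187 in siYT, 28528 in siNC+8Br-cAMP and 27921 in siNC. Both arrays with YAP/TAZ siRNA were the highest, and the log2 differences were 0.70 with and 0.41 without 8Br-cAMP. Another HSPA5 probe set, at 5582, 3687, 1939 and 1236 on those arrays in the same order, differed by 1.53 and 1.58.

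HYOU1 is a large Hsp70 relative that exchanges the nucleotide of BiP. It read 11577 in siYT+8Br-cAMP, 7348 in siYT, 6645 in siNC+8Br-cAMP and 3743 in siNC. Knockdown differences were 0.80 and 0.97 with and without 8Br-cAMP, and 8Br-cAMP differences were 0.66 and 0.83 with YAP/TAZ and control siRNA. The lowest array was siNC, and the highest was the one that had both treatments.

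Calreticulin (CALR), a soluble lectin chaperone that holds glycoproteins while they fold, read 4724 in siYT+8Br-cAMP, 7050 in siYT, 2590 in siNC+8Br-cAMP and 3216 in siNC. Both arrays with YAP/TAZ siRNA were above both with control siRNA (0.87 and 1.13), while 8Br-cAMP differences were -0.58 and -0.31. The 2 other well-measured CALR probe sets gave knockdown differences of 0.11 and -0.04 with 8Br-cAMP and 0.59 and 0.97 without it, so the higher signal with 8Br-cAMP was not shared by all probe sets of the gene. Calnexin (CANX), its membrane-bound counterpart, differed by 0.26 and 0.00 after knockdown and by 0.70 and 0.44 after 8Br-cAMP. Other well-measured CANX probe sets were higher after knockdown, by 0.56 and 0.22, 0.75 and 0.07, and 2.25 and 0.74. After 8Br-cAMP they gave 0.55 and 0.21, 1.01 and 0.33, and 0.46 and -1.04.

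DNAJC3 is a J-domain co-chaperone of BiP that also inhibits PERK. Its values were 4726 in siYT+8Br-cAMP, 4241 in siYT, 3556 in siNC+8Br-cAMP and 1764 in siNC. The siNC array was the lowest and the other 3 were close, so the knockdown difference was 0.41 with and 1.27 without 8Br-cAMP. Other well-measured DNAJC3 probe sets did not all share this pattern. For knockdown with and without 8Br-cAMP they gave 0.68 and 0.42, and -0.53 and 0.48. After 8Br-cAMP with YAP/TAZ and control siRNA they gave 0.25 and -0.01, and -0.39 and 0.62. DNAJB11, the J-domain partner of BiP for nascent chains, read 12498 in siYT+8Br-cAMP, 7336 in siYT, 13612 in siNC+8Br-cAMP and 5885 in siNC. Both arrays with 8Br-cAMP were above both without it (0.77 with YAP/TAZ siRNA and 1.21 with control siRNA), and knockdown differences were -0.12 and 0.32.

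The other chaperones lay within 2-fold. DNAJB9, a J-domain partner that promotes BiP binding to IRE1, differed by 0.64 to 0.67 in all 4 comparisons by its representative probe set, yet another of its probe sets gave -0.77 and 1.42 for knockdown with and without 8Br-cAMP. SDF2L1, a partner of DNAJB11, differed by 0.54 and 0.63 after knockdown and 0.75 and 0.84 after 8Br-cAMP. HSP90B1, the ER Hsp90, differed by 0.34 and 0.58 after knockdown, and DNAJC10, an ER reductase with a J domain, by 0.57 and 0.30. All 3 well-measured DNAJC10 probe sets were higher in both knockdown comparisons, by 0.30 to 0.72.

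**Figure D3:**
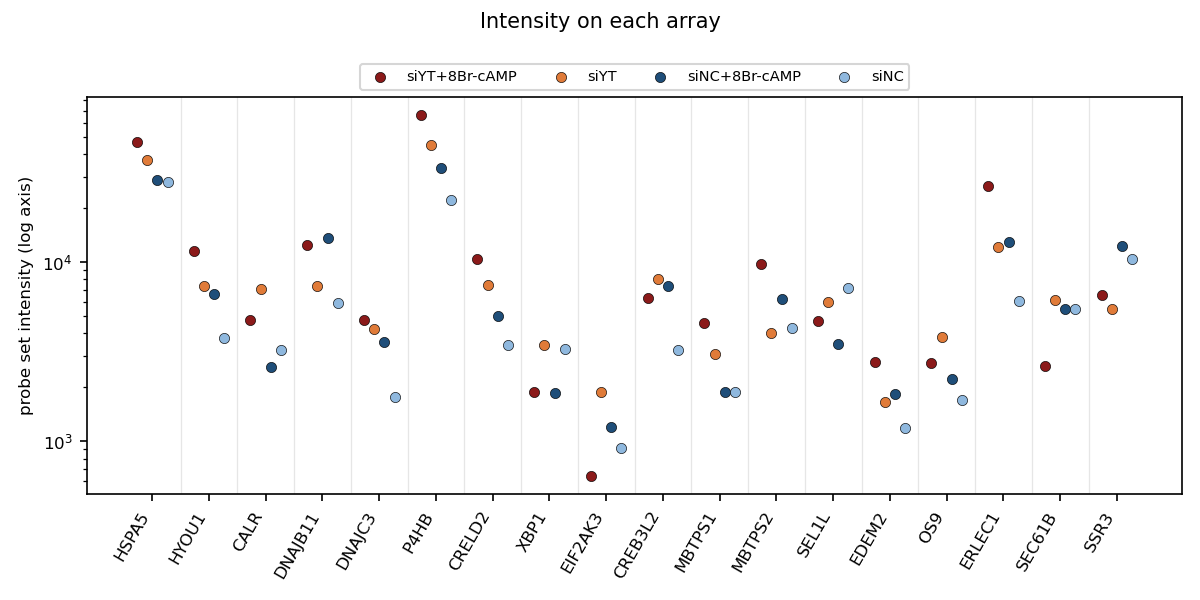
Probe set intensity on each of the 4 arrays (log axis) for the 18 members named with their values, each by its representative probe set; points of a gene run from siYT+8Br-cAMP through siYT and siNC+8Br-cAMP to siNC. P4HB, CRELD2, MBTPS1 and HSPA5 show both arrays with YAP/TAZ siRNA above both with control siRNA, and SSR3 shows them below. Levels of different genes cannot be compared on this axis.

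Disulfide isomerases and small luminal proteins were higher after knockdown in all 8 measured members, both with 8Br-cAMP (median 0.60) and without (median 0.71). P4HB is protein disulfide isomerase itself and also a subunit of collagen prolyl hydroxylase. It read 66143 in siYT+8Br-cAMP, 45200 in siYT, 33478 in siNC+8Br-cAMP and 22133 in siNC, which is 1.98-fold and 2.04-fold higher after knockdown with and without 8Br-cAMP. Another well-measured P4HB probe set gave 0.97 and 1.30 on the log2 scale, but the third read 2742, 8543, 3302 and 2644 in the same order of arrays and gave -0.27 and 1.69.

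CRELD2, a secreted and ER-resident protein induced by ER stress, read 10396 in siYT+8Br-cAMP, 7450 in siYT, 4983 in siNC+8Br-cAMP and 3431 in siNC. Both arrays with YAP/TAZ siRNA were above both with control siRNA, by 1.06 and 1.12. CRELD1, its membrane-anchored relative, differed by 0.96 and 0.31, and MANF, a small luminal protein that is secreted under ER stress, by 0.46 and 0.40.

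The thioredoxin-type enzymes were higher too, by less than 2-fold in their representative probe sets. PDIA3, which acts on glycoproteins held by the lectin chaperones, differed by 0.37 and 0.68 with and without 8Br-cAMP, and its other probe sets by 1.19 and 1.12 and by 0.55 and 1.36. PDIA4 differed by 0.65 and 0.75. PDIA6, which damps IRE1 signalling, differed by 0.26 and 0.80, and each of its other 3 well-measured probe sets was higher in both comparisons. ERP44, which retrieves oxidases and client proteins from the early secretory pathway, differed by 0.55 and 0.10. After 8Br-cAMP this role group had medians of 0.31 and 0.15, with PDIA4 lower in both comparisons (-0.18 and -0.08). The other well-measured PDIA4 probe set gave 0.37 and -0.07.

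The sensors, transcription factors and their activating proteases showed no common direction. Of 8, 6 were higher after knockdown both with and without 8Br-cAMP, but only 4 were the same genes in both, and the medians were 0.24 and 0.71. XBP1 encodes the factor that IRE1 activates by splicing its mRNA. Its intensity was 1884 in siYT+8Br-cAMP, 3447 in siYT, 1867 in siNC+8Br-cAMP and 3282 in siNC. Both arrays with 8Br-cAMP were below both without it, by -0.87 with YAP/TAZ and -0.81 with control siRNA (1.83-fold and 1.76-fold lower), and knockdown differences were 0.01 and 0.07. Splicing of XBP1 was not analysed here.

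EIF2AK3 encodes PERK, the sensor that slows translation under ER stress. It read 637 in siYT+8Br-cAMP, 1883 in siYT, 1207 in siNC+8Br-cAMP and 913 in siNC. The siYT array was the highest and the siYT+8Br-cAMP array the lowest, so the knockdown difference was -0.92 with and 1.04 without 8Br-cAMP, and that of 8Br-cAMP was -1.56 with YAP/TAZ and 0.40 with control siRNA. It was the only well-measured EIF2AK3 probe set.

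CREB3L2, an ER-membrane transcription factor of secretory genes, read 6284 in siYT+8Br-cAMP, 8036 in siYT, 7370 in siNC+8Br-cAMP and 3219 in siNC. The siNC array stood below the other 3, which gave knockdown differences of -0.23 with and 1.32 without 8Br-cAMP. In another CREB3L2 probe set, at 344, 272, 415 and 187, siNC was again the lowest and the differences were -0.27 and 0.54.

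MBTPS1 and MBTPS2 are the Golgi proteases that cut ATF6 and release its active fragment. MBTPS1 read 4549 in siYT+8Br-cAMP, 3066 in siYT, 1892 in siNC+8Br-cAMP and 1878 in siNC, higher on both arrays with YAP/TAZ siRNA by 1.27 and 0.71. Its other well-measured probe set gave 0.48 and 0.69. MBTPS2 read 9748 in siYT+8Br-cAMP, 4037 in siYT, 6249 in siNC+8Br-cAMP and 4269 in siNC, with 8Br-cAMP differences of 1.27 and 0.55. Of the remaining sensors, ATF6 differed by 0.61 and 0.71 after knockdown, although 1 of its other probe sets gave 0.41 and -2.10. ERN1 differed by 0.31 and 0.89, and ATF6B, a close relative of ATF6, by 0.16 and -0.04.

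Degradation genes were divided. In each knockdown comparison, 6 of the 10 measured members were higher, and the medians were 0.16 with and 0.24 without 8Br-cAMP. ERLEC1 is an ER lectin that binds trimmed glycans on degradation substrates. It read 26667 in siYT+8Br-cAMP, 12119 in siYT, 12854 in siNC+8Br-cAMP and 6056 in siNC. The siNC array was the lowest, either treatment alone gave about the same level, and the array with both was the highest. Its log2 differences were 1.05 and 1.00 after knockdown and 1.14 and 1.09 after 8Br-cAMP, and the difference of differences was 0.05 on the log2 scale. The other well-measured ERLEC1 probe set, at 20607, 10250, 9855 and 4995, gave log2 differences of 1.06 and 1.04 after knockdown and 1.01 and 0.98 after 8Br-cAMP.

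OS9, the lectin that shares this role, read 2719 in siYT+8Br-cAMP, 3795 in siYT, 2234 in siNC+8Br-cAMP and 1699 in siNC. Both arrays with YAP/TAZ siRNA were above both with control siRNA, by 0.28 with and 1.16 without 8Br-cAMP, and its other well-measured probe set gave 1.16 and 1.19. SEL1L, the adaptor that links substrates to the SYVN1 ubiquitin ligase, read 4663 in siYT+8Br-cAMP, 5990 in siYT, 3498 in siNC+8Br-cAMP and 7182 in siNC. It was lower on both arrays with 8Br-cAMP, by -0.36 and -1.04, and its other well-measured probe sets gave -0.65 and -0.33 for 1 and 0.18 and -0.10 for the other.

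The mannosidase-like proteins that mark glycoproteins for degradation went different ways. EDEM2 read 2751 in siYT+8Br-cAMP, 1665 in siYT, 1836 in siNC+8Br-cAMP and 1188 in siNC, higher after knockdown (0.58 and 0.49) and after 8Br-cAMP (0.72 and 0.63). EDEM1 was lower in all 4 comparisons (-0.79 and -0.33 after knockdown, -0.82 and -0.36 after 8Br-cAMP). EDEM3 differed by -0.56 and 0.29 after knockdown and by -0.93 and -0.08 after 8Br-cAMP by its representative probe set. Its other well-measured probe set gave -0.71 and -0.02 after knockdown. After 8Br-cAMP that probe set went the opposite way, by 0.43 and 1.11.

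Of the channel-like derlins, DERL1 differed by 0.04 and 0.18 after knockdown by its representative probe set. Its other well-measured probe sets gave 1.10 and 1.01, and 0.84 and 0.93. DERL2 differed by -0.11 and -0.56, but its other well-measured probe set by 0.004 and 0.51. DERL3 was near the floor, with intensities of 76.3, 51.1, 100 and 118 on the arrays in the order above, and was at least 1.89-fold lower in siYT against siNC. HERPUD1, a membrane scaffold of the ligase complex that ER stress induces, was higher after knockdown (0.47 and 0.54) and lower after 8Br-cAMP (-0.45 and -0.39).

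Translocation genes had no common shift, with medians of -0.36 with and 0.18 without 8Br-cAMP over 4 measured members. SEC61B, the small beta subunit of the channel, read 2624 in siYT+8Br-cAMP, 6170 in siYT, 5435 in siNC+8Br-cAMP and 5484 in siNC. Only the siYT+8Br-cAMP array was low, by -1.05 against siNC+8Br-cAMP and -1.23 against siYT, and the other SEC61B probe set was near the floor (176, 63.3, 67.4 and 61.6 in the same order). SSR3, the gamma subunit of the translocon-associated complex, read 6570 in siYT+8Br-cAMP, 5491 in siYT, 12224 in siNC+8Br-cAMP and 10378 in siNC. Both arrays with YAP/TAZ siRNA were below both with control siRNA, by -0.90 and -0.92 (1.86-fold and 1.89-fold), and its other well-measured probe sets were lower in both comparisons too (-1.13 and -0.60, -1.21 and -0.63).

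The alpha subunit of that complex did not share this, since SSR1 differed by 0.18 and 0.20, and all 6 of its well-measured probe sets were higher in siYT against siNC. SEC61A1, the pore-forming subunit, differed by 0.59 and 0.31, while its other well-measured probe set gave -0.46 and -0.37.

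How far the probe sets of a member agreed set the weight of these values. Of 106 probe sets of the members, 81 were above 4 times the floor on all arrays. The 42 of them that were not representative had the direction of their gene's representative in 33 cases for knockdown with 8Br-cAMP and 37 without. For 8Br-cAMP the numbers were 22 with YAP/TAZ and 31 with control siRNA. Over all 81, 62 were higher after knockdown with 8Br-cAMP (median 0.42) and 69 without (median 0.59), and 53 and 62 were higher after 8Br-cAMP (medians 0.26 and 0.32). Of 23 genes with several well-measured probe sets, all sets were higher in 12 and 17 genes after knockdown. In 18 members the representative carries a suffix that marks probes able to match more than 1 transcript or gene, and their values may include signal from relatives.

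**Figure D4:**
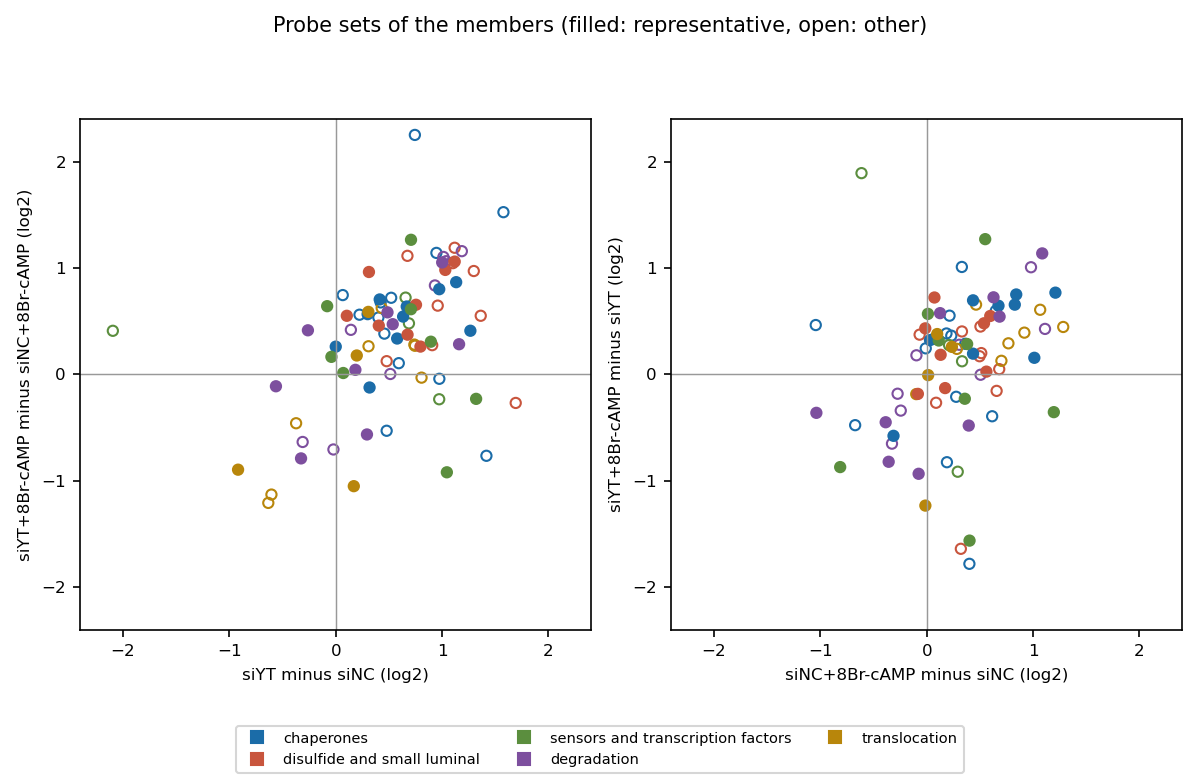
Log2 differences of the 81 well-measured probe sets of the members, for knockdown (left: with 8Br-cAMP on the vertical axis, without it on the horizontal axis) and for 8Br-cAMP (right: with YAP/TAZ siRNA on the vertical axis, with control siRNA on the horizontal axis). Filled points are representative probe sets, open points others, and colours give the role. Most points of the left panel lie above and right of 0, where 62 and 69 of 81 probe sets were higher.

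Because members have high signal, they were also set beside the 7906 genes above 4 times the floor on all arrays, a set chosen after the values were seen. Among those, 49.5% and 51.1% were higher after knockdown with and without 8Br-cAMP, and the medians were -0.01 and 0.01. The 39 members that meet the same condition had medians of 0.41 and 0.49, with 31 and 33 higher.

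Other genes of the same processes, from lists written with earlier results of these arrays known, had positive medians when pooled. Over 75 compared genes of folding, translocation, glycosylation and degradation, the median difference was 0.19 with and 0.20 without 8Br-cAMP after knockdown, and 0.26 and 0.32 after 8Br-cAMP with YAP/TAZ and control siRNA. At 2-fold, 6 and 3 of the 75 were higher after knockdown with and without 8Br-cAMP, against 6.74% and 7.30% of all genes, and 5 and 0 were lower, against 9.48% and 6.05%. The 26 folding and oxidation genes had knockdown medians of 0.23 and 0.55, where the members had 0.41 and 0.45. The 29 translocation and glycosylation genes had 0.11 and 0.15, and the 20 degradation genes 0.13 and -0.02.

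Among these, TMX4 and FKBP7 passed 2-fold upward both with and without 8Br-cAMP after knockdown. TMX4, a membrane-bound thioredoxin-like protein, read 4206 in siYT+8Br-cAMP and 4105 in siYT, against 1371 in siNC+8Br-cAMP and 1067 in siNC (log2 differences 1.62 and 1.94). FKBP7, a prolyl isomerase of the ER, read 5851 and 2787 against 2015 and 1148 (1.54 and 1.28). No gene of these lists was past 2-fold in both 8Br-cAMP comparisons.

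Genes of a list around ATF4 and CHOP (DDIT3), transcription factors downstream of PERK, were mostly lower. The 10 compared genes had medians of -0.24 and -0.84 after knockdown and -1.02 and -1.87 after 8Br-cAMP. PERK activity was not measured, and which upstream signal these transcripts followed was not tested. At 2-fold, 3 and 4 of the 10 were lower after knockdown, against 9.48% and 6.05% of all genes. After 8Br-cAMP, 5 and 8 were at least 2-fold lower, against 9.88% and 5.22%. In each of the 4 comparisons 0 were at least 2-fold higher, against 4.34% to 7.30% of all genes. By any amount 3 were higher, all in siYT+8Br-cAMP against siNC+8Br-cAMP. DDIT3 read 892 in siYT+8Br-cAMP, 3095 in siYT, 635 in siNC+8Br-cAMP and 5118 in siNC, so both arrays with 8Br-cAMP were below both without it. DDIT3, TRIB3, PPP1R15A, ASNS and PSAT1 were at least 2-fold lower in both 8Br-cAMP comparisons, and ASNS and PSAT1, enzymes of amino acid synthesis, in both knockdown comparisons as well.

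**Figure D5:**
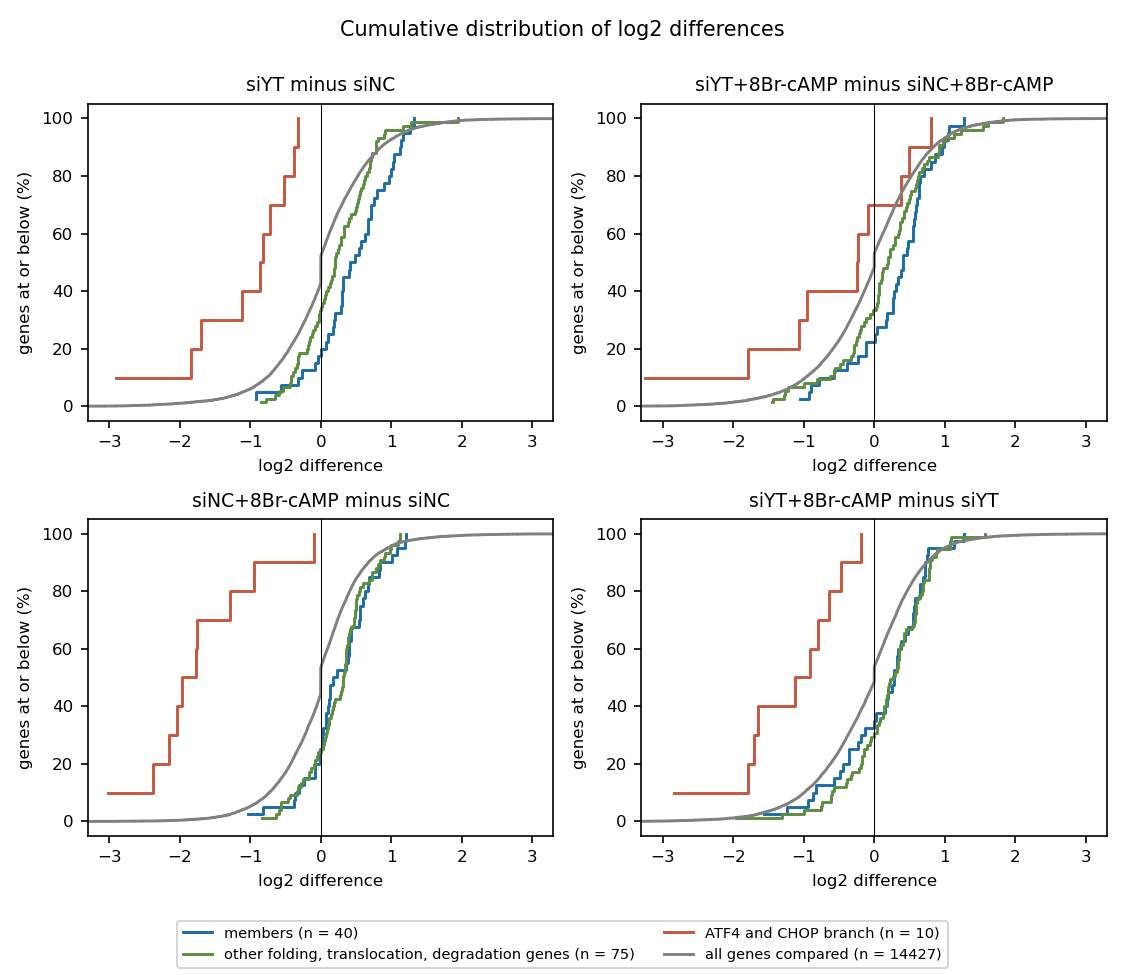
Cumulative share of genes (percent, vertical axis) at or below a log2 difference (horizontal axis) in each of the 4 comparisons, for the 40 members, 75 other genes of folding, translocation and degradation, 10 genes of the ATF4 and CHOP branch and all 14427 genes compared. The member curve lies right of the curve of all genes around its middle, at medians of 0.45, 0.41, 0.20 and 0.28 from top left to bottom right, and the ATF4 and CHOP curve lies left of it at the median.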

How the data were processed

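RNA of KGN cells was measured in 4 groups with 1 array each. The deposited values are linear probe set intensity values. Per the submitters' processing notes the authors made them by RMA in Affymetrix Expression Console (no version given in the sources used here), yet the 2% trimmed mean was 500.1 on each array and values reached down to 0.0806, so their background correction and summary stay unknown.

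Values below 62.6 (log2 5.97), the median of all values, were set to that floor, which was not in the written design, before log2, with no further normalization. The 41097 of 54675 probe sets that list 1 gene symbol were used, and columns that match no sample numbered 0. A gene was represented by its probe set with the highest mean log2 value. Genes with any array above the floor were compared by size (2-fold, log2 difference of 1), since a comparison of 1 array with 1 array allows no test, and a fold against the floor is a lower bound. The number of arrays limits precision. An additive limma fit over the 4 arrays (limma 3.58.1, R 4.3.3), with 1 residual degree of freedom, gave the only p-values and covered all genes, and its code and the 2-fold rule were tested on simulated data. Other steps used Python 3.11.15, pandas 2.3.3 and numpy 2.4.6.

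The members, roles and lists were chosen with earlier results of these data known. Values on every array are given for members at least 2-fold different in any comparison, HSPA5, XBP1, the 2 members of each role group with the largest mean absolute difference, and list genes past 2-fold in both comparisons of a factor; other probe sets, DERL3 and DDIT3 were added after their values were seen. Alternatives were to drop the level filter, to raise it to the 75th percentile (388.7), the mean over probe sets, no probe sets with a shared suffix, cyclic loess, a pseudocount of 50, and 1.5-fold. Protein sequences were not used here.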

Additional observations from a re-analysis of the deposited data

Results flagged for a closer look

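EIF2AK3, CREB3L2 and SEC61B differed in opposite directions between the comparisons of a factor by more than 2-fold in the difference of differences; with 1 array per group this difference was not tested. For EIF2AK3 the log2 difference of differences was -1.965, from knockdown differences of -0.92 with and 1.04 without 8Br-cAMP, and from 8Br-cAMP differences of -1.56 with YAP/TAZ and 0.40 with control siRNA. For CREB3L2 it was -1.55, from knockdown differences of -0.23 and 1.32 and 8Br-cAMP differences of -0.35 and 1.19. For SEC61B it was -1.221, from knockdown differences of -1.05 and 0.17. The SD of such a value between well-measured probe sets of the same gene was 0.60. With the mean over all probe sets of each gene, the difference of differences was -0.98 for EIF2AK3, -0.79 for CREB3L2 and 0.074 for SEC61B, but for EIF2AK3 and CREB3L2 these means include a probe set below the floor on all 4 arrays, whose differences are 0 and which lowers the size by construction, and for SEC61B a probe set near the floor. The array that stood apart was siYT+8Br-cAMP for SEC61B (lowest) and siNC for CREB3L2 (lowest), while EIF2AK3 was lowest in siYT+8Br-cAMP and highest in siYT. The siYT+8Br-cAMP array also had the highest 3' to 5' ratios, whose part was not tested.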

How the results depend on the processing

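With 1 array per group, no replicate could be left out. No paired analysis was possible because no group had a replicate to pair by number; the additive fit over the 4 arrays sets the comparisons of each factor against each other. Without the level filter, and with the filter at the 75th percentile (39 members left), every count and median of members stayed within 1.5 times or within its spread. With the mean over all probe sets, the members at least 2-fold higher and lower after 8Br-cAMP numbered 0 and 0 with YAP/TAZ siRNA (median 0.157) and 1 and 0 with control siRNA, 1 was higher in both knockdown comparisons and 0 in both 8Br-cAMP comparisons. SEC61B then changed sign, to 0.17 against siNC+8Br-cAMP, 0.12 against siYT and 0.074 for the difference of differences, since its other probe set near the floor entered the mean. Without probe sets with a shared suffix (32 members), 8 were higher and 2 lower after knockdown with 8Br-cAMP and 4 higher in both comparisons, and the median without 8Br-cAMP was 0.61; fewer members and other probe sets entered. Cyclic loess left 1 member higher after 8Br-cAMP with YAP/TAZ siRNA (median 0.132) and 2 with control siRNA, 1 higher in both knockdown and 0 in both 8Br-cAMP comparisons. With the pseudocount, 1 was higher in both knockdown comparisons. ERLEC1 (log2 differences of 1.05 and 1.00) and CRELD2 (1.06 and 1.12) lie close to the threshold in the knockdown comparisons.

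At 1.5-fold, 13 members were higher and 4 lower after knockdown with 8Br-cAMP (all genes 17.8% and 20.0%), and 17 and 2 without (17.7% and 15.0%), with 9 and 1 in both comparisons (7.65% and 7.76%). After 8Br-cAMP, 9 and 5 passed with YAP/TAZ siRNA (15.0% and 21.3%), 10 and 2 with control siRNA (12.7% and 14.1%), and 6 and 1 in both (4.79% and 6.72%). Of 525 differences of named members under alternatives, 496 stayed within the spread between probe sets, 26 moved beyond it and 3 changed sign past 2-fold. Probe sets below the floor on all arrays, which have differences of 0, pull the mean over probe sets toward 0 by construction for EIF2AK3, CREB3L2, XBP1 and MBTPS2; the cause of the other changes was not tested. Signal near the floor limits DERL3.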

Other observations

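Several other genes of folding and import showed the same kind of disagreement between comparisons, and they were picked after their values were seen. In the list of other folding and oxidation genes, 5 of 26 had a difference of differences below -1 on the log2 scale, while 0 were above 1. SERP1, a small protein that stabilises membrane proteins at the translocon, read 5955 in siYT+8Br-cAMP, 10023 in siYT, 16256 in siNC+8Br-cAMP and 8235 in siNC, a difference of differences of -1.73. The siNC+8Br-cAMP array was its highest and siYT+8Br-cAMP its lowest. ERO1B, an ER oxidase, had -1.62, FKBP11, a prolyl isomerase, -1.36, TMX1, a membrane-bound thioredoxin, -1.34, and PRKCSH, a glucosidase subunit, -1.28. Among the 29 translocation and glycosylation genes, SSR4 and SRPRA were above 1 (1.34 for SSR4). Over all genes, 1379 of 14427 were at or below -1 and 778 at or above 1. These differences were not tested, and each includes the siYT+8Br-cAMP array.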
